A study of Mus musculus with 6 samples.

Results

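Acute-phase proteins are secreted proteins whose amount in blood changes during infection, injury or cancer, when inflammatory cytokines, above all interleukin-6 and interleukin-1, act on liver cells through STAT3, C/EBP and NF-kB transcription factors. Many of them are also made outside the liver, by epithelial cells, macrophages and stromal cells at the site of inflammation. The serum amyloid A genes Saa1 and Saa2 encode the main circulating forms in the mouse, and Saa3 the form made mostly in other tissues, including the lung. The 8 genes described here were Saa3, Saa1, Saa2, Lcn2 (lipocalin 2, which binds bacterial siderophores), Hp (haptoglobin, which binds free hemoglobin), Orm1 (orosomucoid 1, a carrier of small molecules), Clu (clusterin, an extracellular chaperone) and Ptx3 (the long pentraxin 3, a soluble pattern recognition protein). They were taken by gene name from a table of 34745 genes, and all 8 were listed in it. The group was put together with earlier results of these libraries in view, so its genes were chosen by the values described here, and their levels, fold changes and calls are given as a description, from which no test result is read.

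The cells were mesenchymal stromal cells cultured from the lung (LMSCs) of mice of the MMTV-PyMT strain, whose transgene drives polyoma middle T antigen in the mammary epithelium from a mouse mammary tumor virus promoter and gives tumors that spread to the lung. Per the labels, A-LMSCs came from mice 6 to 7 weeks old at the adenoma stage, PM-LMSCs from mice 9 to 10 weeks old at the pre-metastatic stage, and M-LMSCs from mice 13 to 14 weeks old at the metastatic stage. The study's methods give slightly older mice for the A and PM stages. All groups carried the transgene, so mice without tumors are not part of the comparison, and stage and age cannot be told apart. Adherent lung cells had been depleted of CD45+ leukocytes and cultured to passage 3. There were 2 libraries of each stage, 6 in all, and the labels tell them apart by a number alone. The study's methods count 3 mice for each stage, 2 of them in these data, so the libraries of a stage stand for 2 mice. Their spread holds differences between mice, cultures and libraries, which cannot be told apart. In such bulk libraries, fewer cells of a type and less RNA per cell cannot be told apart.

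Levels are given in FPKM, fragments scaled to the length of the gene and to the total of the library, which allows genes to be compared within a library. The spacing of low values gave an estimated depth of 14.6 to 20.6 M fragments per library (M, mega). Tests covered the 10279 genes whose 6 values averaged 1 FPKM or more. Of the 8 genes, 3 passed this filter (Saa3, Clu and Ptx3), and 5 did not (Hp, Lcn2, Saa1, Orm1 and Saa2). Those that passed did so through their own levels, so nothing is read from their number.

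The Saa genes lie next to each other on chromosome 7, at chr7:46711998-46715700 for Saa3 (minus strand), chr7:46740497-46742980 for Saa1 (minus strand) and chr7:46751790-46754313 for Saa2 (plus strand) in GRCm38. The starts of their coding sequences are shown because they decide how far a fragment can be assigned to 1 of the genes. Each is the first 150 bases, from the start codon, of a coding sequence of 366 bases in the GENCODE M21 annotation, and capitals mark the bases that differ from Saa1.

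Saa1: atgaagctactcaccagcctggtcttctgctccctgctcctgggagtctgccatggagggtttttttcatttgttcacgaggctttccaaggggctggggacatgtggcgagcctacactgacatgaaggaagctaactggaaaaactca

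Saa2: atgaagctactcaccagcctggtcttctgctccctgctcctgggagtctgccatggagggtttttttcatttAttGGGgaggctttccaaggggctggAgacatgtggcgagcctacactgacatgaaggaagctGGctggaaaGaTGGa

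Saa3: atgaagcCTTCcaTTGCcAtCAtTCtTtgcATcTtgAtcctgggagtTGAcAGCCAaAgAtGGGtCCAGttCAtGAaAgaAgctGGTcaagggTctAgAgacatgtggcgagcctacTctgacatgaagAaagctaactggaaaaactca

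Within these stretches Saa2 differed from Saa1 at 11 bases and Saa3 at 49. Over the whole coding sequence, Saa1 and Saa2 were 95.1% identical, Saa1 and Saa3 73.0%, and Saa2 and Saa3 71.3%. Transcripts of Saa1 and Saa2 shared 2448 aligned bases at 96.7% identity, so counting could split or lose their fragments, and their values are uncertain. Transcripts of Saa3 shared aligned stretches of up to 166 bases, at an identity of at least 90%, with transcripts of 1465 other genes. No near-identical copy of the whole gene was found. Saa1 and Saa2 each shared 130 aligned bases with Saa3, at 93.1% and 90% identity.

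Saa3 was the gene of the group with the largest relative difference between stages among the 3 that passed the filter. Its level was 3.25 and 2.04 FPKM in A-LMSCs replicates 1 and 2, against 15.7 and 6.99 FPKM for PM-LMSCs, and 19.9 and 48.2 FPKM for M-LMSCs. The libraries of each later stage lay above both A-LMSC libraries, and those of M-LMSCs above both of PM-LMSCs, so the stages did not overlap. The libraries of a stage were far apart, with M-LMSCs replicate 2 at 2.42 times the level of replicate 1.

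The mean level of Saa3 was 2.65 ± 0.854 FPKM (SD, n = 2) in A-LMSCs, 11.3 ± 6.14 FPKM in PM-LMSCs and 34.1 ± 20.0 FPKM in M-LMSCs. Ratios of the means were 4.28 for PM-LMSCs over A-LMSCs, 12.9 for M-LMSCs over A-LMSCs and 3.01 for M-LMSCs over PM-LMSCs. Taken by replicate number, M-LMSCs over A-LMSCs came to 6.13-fold for number 1 and 23.6-fold for number 2. M-LMSCs and PM-LMSCs were close for number 1 (1.27-fold) and apart for number 2 (6.90-fold). The step from PM-LMSCs to M-LMSCs thus rested mostly on the libraries of number 2, the higher of M-LMSCs and the lower of PM-LMSCs. In the limma fit on log2(FPKM + 1), a scale that understates changes of low genes, Saa3 differed by 1.68 (SE 0.48) for PM-LMSCs against A-LMSCs, 3.16 (SE 0.48) for M-LMSCs against A-LMSCs and 1.48 (SE 0.48) for M-LMSCs against PM-LMSCs. Without M-LMSCs replicate 2, the difference of M-LMSCs from A-LMSCs was 2.54 and that from PM-LMSCs 0.86. The difference of M-LMSCs from PM-LMSCs was 0.94 without PM-LMSCs replicate 2.

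Clu (chr14:65968483-65981547, plus strand), which binds misfolded proteins and lipids and limits the terminal complement complex, was present at every stage. It stood at 7.83 and 9.40 FPKM in A-LMSCs, at 15.7 and 19.9 in PM-LMSCs, and at 16.1 and 38.5 in M-LMSCs. All 4 later-stage libraries were above both A-LMSC libraries, while PM-LMSCs and M-LMSCs overlapped, with M-LMSCs replicate 1 between the libraries of PM-LMSCs. Its stage means, in the same order, were 8.61 ± 1.11 FPKM (SD, n = 2), 17.8 ± 2.99 FPKM and 27.3 ± 15.8 FPKM.

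For Clu, both replicate numbers gave nearly the same ratio of PM-LMSCs over A-LMSCs, 2.01 for number 1 and 2.12 for number 2. The ratio of M-LMSCs over PM-LMSCs was 1.02 for number 1 and 1.93 for number 2, so the later step appeared in only 1 of the 2 pairs. The limma differences on the log2 scale were 0.97 (SE 0.36) for PM-LMSCs against A-LMSCs, 1.44 (SE 0.36) for M-LMSCs against A-LMSCs and 0.47 (SE 0.36) for M-LMSCs against PM-LMSCs. Without M-LMSCs replicate 2 the last of these turned to -0.13 and the M-LMSC difference from A-LMSCs was 0.84.

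Ptx3 (chr3:66219910-66225805, plus strand), which opsonizes microbes and binds complement C1q, differed in order from Saa3 and Clu. Its level was 17.2 and 8.82 FPKM in A-LMSCs, with 12.2 and 7.86 in PM-LMSCs, and 26.3 and 21.6 in M-LMSCs. Both M-LMSC libraries were above all others, and A-LMSCs and PM-LMSCs overlapped. In each stage replicate 1 was higher than replicate 2, by 1.95-fold at the A stage, 1.56-fold at the PM stage and 1.22-fold at the M stage.

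Within the pairs of equal number, Ptx3 in PM-LMSCs was 0.710 and 0.891 times its level in A-LMSCs, and in M-LMSCs 1.53 and 2.45 times. The M-LMSC level was 2.16 and 2.75 times that of PM-LMSCs. Means were 13.0 ± 5.93 FPKM (SD, n = 2), 10.0 ± 3.09 FPKM and 24.0 ± 3.37 FPKM. The limma differences were -0.30 (SE 0.32) for PM-LMSCs against A-LMSCs, 0.89 (SE 0.32) for M-LMSCs against A-LMSCs and 1.20 (SE 0.32) for M-LMSCs against PM-LMSCs. Without A-LMSCs replicate 1 the first of these was 0.14, so the order of A-LMSCs and PM-LMSCs was not settled by the stage means.

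**Figure D1:**
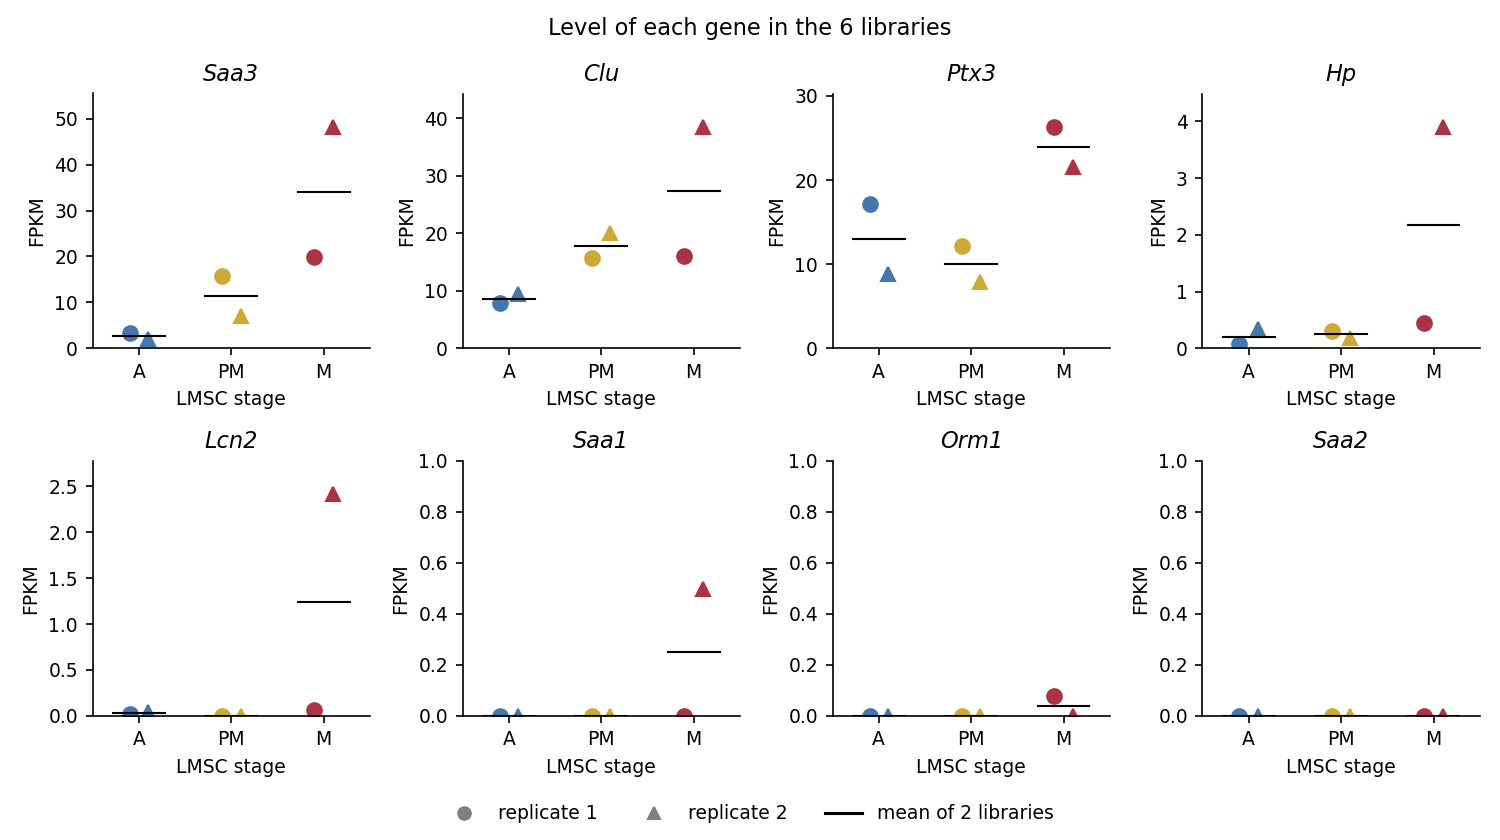
Level in FPKM of each of the 8 genes (vertical axis, a scale of its own in each panel, starting at 0) in A-, PM- and M-LMSCs (horizontal axis). Circles are replicate 1, triangles replicate 2 and lines the mean of the 2 libraries. M-LMSCs replicate 2 stands above the other 5 libraries for Saa3, Clu, Hp, Lcn2 and Saa1, and not for Ptx3 or Orm1, and Saa2 is at 0 throughout.

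Hp (chr8:109575128-109579172, minus strand) and Lcn2 (chr2:32384633-32388252, minus strand) were low except in 1 library. Hp stood at 0.0714 and 0.340 FPKM in A-LMSCs, at 0.302 and 0.187 in PM-LMSCs, and at 0.450 and 3.90 in M-LMSCs. M-LMSCs replicate 2 was thus 8.68 times the next highest library, and A-LMSCs and PM-LMSCs overlapped. At the estimated depth, and depending on the transcript length used, the value in M-LMSCs replicate 2 stands for 48.8 to 105 fragments and the next highest for 5.58 to 12.0. The mean over the 6 libraries was 0.876 FPKM, just under the filter.

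Lcn2 stood at 0.0197 and 0.0470 FPKM in A-LMSCs, was listed at 0 in both PM-LMSC libraries, and stood at 0.0621 and 2.41 FPKM in M-LMSCs. The value in M-LMSCs replicate 2 stands for 29.8 to 106 fragments and each of the others for at most 2.70, so the ratio between them is poorly known and is not given. A difference between A- and PM-LMSCs was not detectable at this depth.

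Saa1 was listed at 0 in all libraries except M-LMSCs replicate 2, where it stood at 0.498 FPKM, or 5.07 to 20.6 fragments. Saa2 was listed at 0 in all 6 libraries. Since these genes are nearly identical, a fragment from either could have been given to the other or discarded. Orm1 (chr4:63344560-63348163, plus strand) was listed at 0 in all libraries except M-LMSCs replicate 1, where 0.0780 FPKM stands for 1.00 fragment, and its neighbor Orm2 shared 775 aligned bases with it at 91.0% identity. Orm2 itself stood at 0.124 and 0.221 FPKM in A-LMSCs and at 0.233 to 0.437 FPKM in the later libraries.

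M-LMSCs replicate 2 was the highest library for Saa3 and Clu among the 3 tested genes, and for Hp, Lcn2 and Saa1 among the rest. Over all genes tested, 16.6% were highest in that library. M-LMSCs replicate 1 was above both A-LMSC libraries for Saa3, Clu, Ptx3, Hp and Lcn2, although for Lcn2 this rests on at most 2.70 fragments. For Hp it rests on 5.58 to 12.0 fragments, beside 4.47 to 9.59 in A-LMSCs replicate 2.

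All 3 tested genes had both M-LMSC libraries above both A-LMSC libraries, as did 27.1% of all tested genes. Both PM-LMSC libraries were above both A-LMSC libraries for Saa3 and Clu (19.6% of tested genes), and both M-LMSC libraries above both PM-LMSC libraries for Saa3 and Ptx3 (17.8%). Saa3 and Clu were also among the 10.7% of tested genes with all 4 later-stage libraries above both A-LMSC libraries. These genes were chosen by such values, and nothing is read from the counts. PM-LMSCs and M-LMSCs share the A-LMSC libraries as reference, so agreement between those contrasts is not given as a result.

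limma's test, at an adjusted p under 0.05 over all tested genes, called 0 of the 3 genes in each contrast. It called 0.0389% of tested genes for PM-LMSCs against A-LMSCs, 0.0681% for M-LMSCs against A-LMSCs and 0.0292% for M-LMSCs against PM-LMSCs. With the replicate number as a block, which removes what libraries of the same number share, limma called 0 of the 3 for PM-LMSCs against A-LMSCs (0.292% of tested genes), 3 for M-LMSCs against A-LMSCs (3.92%) and 1, Ptx3, for M-LMSCs against PM-LMSCs (0.418%). As the genes were selected on these contrasts, the calls describe them and are no independent evidence. The block assumes a pairing that was read from these same values and is not given by the labels. Every value with the block rests on it.

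**Figure D2:**
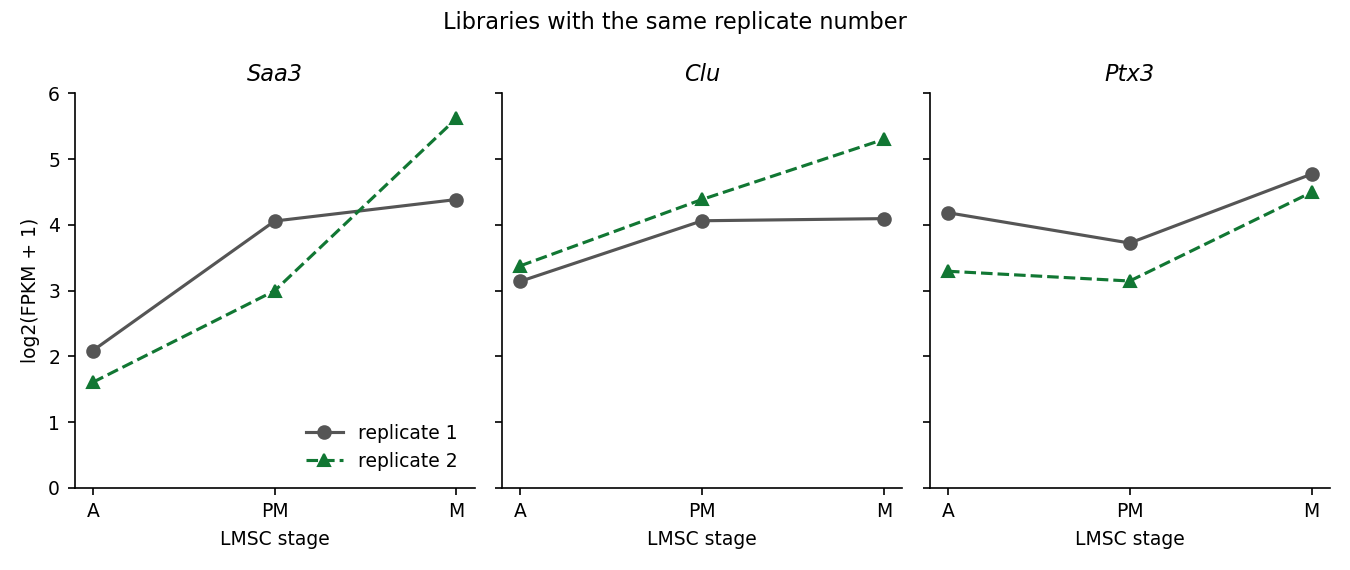
Level as log2(FPKM + 1) (vertical axis) of Saa3, Clu and Ptx3 in A-, PM- and M-LMSCs (horizontal axis), with lines joining libraries of the same replicate number. In both pairs PM-LMSCs lie above A-LMSCs for Saa3 and Clu, and M-LMSCs lie higher again mainly for number 2, while Ptx3 is lowest in PM-LMSCs in both pairs.

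Across the 6 libraries, log2(FPKM + 1) of Saa3 and Clu had a Pearson r of 0.876, Saa3 and Ptx3 of 0.619, and Clu and Ptx3 of 0.267. These are descriptions over 6 libraries that share their stages. The genes most like Saa3 were Tex2 (r = 0.990), Slfn2 (0.989) and Sh3rf1 (0.989), among 174 tested genes with an r of at least 0.9. Slfn2 ran from 5.63 FPKM in A-LMSCs replicate 2 to 13.9 FPKM in M-LMSCs replicate 2. Those most like Clu were Ostf1 (0.993), Mmp2 (0.992) and Sft2d2 (0.991), among 187. Mmp2, a gelatinase, stood at 60.5 and 61.5 FPKM in A-LMSCs, at 88.7 and 111 in PM-LMSCs, and at 86.7 and 155 in M-LMSCs, the same order of libraries as Clu except that M-LMSCs replicate 1 lay below PM-LMSCs replicate 1. Those most like Ptx3 were Mtch2 (0.988), Chd3 (0.979) and Ly6a (0.972), among 132. Ly6a encodes the stromal surface antigen Sca-1.

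The 300 bases around the start of 3 genes are shown because acute-phase genes are classical targets of C/EBP and NF-kB factors. They run from 250 bases before the start to 50 after it, on the strand of the gene, and were taken from RefSeq on GRCm38.p6, where 5 of the 8 genes (Saa3, Saa1, Saa2, Lcn2 and Ptx3) were matched. Capitals mark matches, on either strand, to TTNNGNAA for C/EBP, GGGNNNNNCC for NF-kB and TTCNNNGAA for STAT factors.

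Saa3, chr7:46715627-46715926: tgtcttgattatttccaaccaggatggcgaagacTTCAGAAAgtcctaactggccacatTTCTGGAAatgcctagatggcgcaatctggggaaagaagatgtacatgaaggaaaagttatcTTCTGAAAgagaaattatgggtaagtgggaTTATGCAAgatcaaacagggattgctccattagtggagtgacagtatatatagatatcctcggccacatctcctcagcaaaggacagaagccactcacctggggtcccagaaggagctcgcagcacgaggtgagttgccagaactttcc

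Lcn2, chr2:32387690-32387989: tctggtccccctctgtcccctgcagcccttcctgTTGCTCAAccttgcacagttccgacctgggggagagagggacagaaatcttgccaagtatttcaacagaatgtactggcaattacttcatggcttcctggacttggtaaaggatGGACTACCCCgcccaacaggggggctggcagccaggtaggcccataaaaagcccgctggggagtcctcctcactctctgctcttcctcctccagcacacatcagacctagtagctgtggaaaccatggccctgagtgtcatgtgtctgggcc

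Ptx3, chr3:66219637-66219936: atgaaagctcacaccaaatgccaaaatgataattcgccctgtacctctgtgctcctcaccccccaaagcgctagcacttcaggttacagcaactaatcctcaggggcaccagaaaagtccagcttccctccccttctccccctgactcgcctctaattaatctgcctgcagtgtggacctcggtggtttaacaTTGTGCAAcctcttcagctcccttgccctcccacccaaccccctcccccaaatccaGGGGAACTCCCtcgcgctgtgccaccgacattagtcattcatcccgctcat

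The C/EBP pattern occurred 4 times in the Saa3 promoter, 2 times in that of Saa1, and 1 time each in those of Saa2, Lcn2 and Ptx3. Of 32851 promoters of this length, 40.7% held it at least 1 time and 1.16% at least 4 times. The NF-kB pattern had 0 matches in Saa3 and 1 each in Saa1, Saa2 and Lcn2. In Ptx3 it had 3 matches, which overlap each other. It occurred in 50.8% of all promoters. The STAT pattern was in none of the 5 promoters and in 8.30% of all. In Saa1 the second C/EBP match abuts the NF-kB match, and nowhere in the 5 promoters did matches to different patterns overlap. A match is only a match of letters.

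The other genes of the acute-phase and innate response were read from 4 lists holding 173 genes, of which 171 were in the table and 81 passed the filter. At an adjusted p under 0.05 limma called 0 of the 81 in each contrast, and at an unadjusted p under 0.05 it called 12 for PM-LMSCs against A-LMSCs, 20 for M-LMSCs against A-LMSCs and 15 for M-LMSCs against PM-LMSCs. Over all 10279 tested genes the unadjusted counts were 671, 1504 and 919. With the replicate block the calls were 1, 9 and 2, and all were higher at the later stage. Over all tested genes the block gave 30, 403 and 43 calls (0.292%, 3.92% and 0.418%). Of these, 27, 234 and 28 were higher at the later stage. The median log2 difference of the 81 was 0.03, 0.15 and 0.08, beside 0.01, 0.03 and -0.00 over all tested genes. M-LMSCs replicate 2 was the highest library for 26 of the 81 (32.1%), beside 16.6% of all tested genes. The lists were chosen with earlier results of these data known, so nothing is read from these counts.

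Among hepatic acute-phase proteins, 13 of 50 genes passed the filter. Saa4, Crp, Apcs, Fga, Fgb and Fgg were listed at 0 in all libraries. Trf (transferrin, the iron carrier of plasma) stood at 6.07 and 9.48 FPKM in A-LMSCs, at 14.5 and 23.8 in PM-LMSCs, and at 16.4 and 33.5 in M-LMSCs, with all later libraries above both A-LMSC libraries. Its log2 difference from A-LMSCs was 1.19 (SE 0.38) in PM-LMSCs and 1.51 (SE 0.38) in M-LMSCs. The limma adjusted p values were 0.572 and 0.159, and with the replicate block 0.0369 and 0.00955.

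Serpina3n, a secreted inhibitor of serine proteases, stood at 38.8 and 36.0 FPKM in A-LMSCs, at 31.1 and 33.5 in PM-LMSCs, and at 58.0 and 60.8 in M-LMSCs. Like Ptx3 it was highest in both M-LMSC libraries and lowest in PM-LMSCs, but without overlap of any stages. Its log2 difference from PM-LMSCs was 0.86 (SE 0.11), with a limma adjusted p of 0.0961, or 0.0397 with the replicate block. Apoe, the apolipoprotein of lipid transport, stood at 6.36 and 4.81 FPKM in A-LMSCs, at 9.31 and 7.79 in PM-LMSCs, and at 19.0 and 12.1 in M-LMSCs. Its log2 difference of M-LMSCs from A-LMSCs was 1.31 (SE 0.23), with a limma adjusted p of 0.0981, or 0.0128 with the replicate block.

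Lbp, which binds bacterial lipopolysaccharide, was at 0.603 to 1.07 FPKM in 5 libraries and at 3.29 FPKM in M-LMSCs replicate 2. Its log2 difference of M-LMSCs from PM-LMSCs was 0.87 (SE 0.31), with a limma adjusted p of 0.488. Among the most abundant genes of the list, Serping1, the C1 inhibitor, ranged from 248 to 374 FPKM, and the metallothioneins Mt1 and Mt2 from 415 to 606 FPKM and from 232 to 378 FPKM. M-LMSCs replicate 2 was the highest library for 7 of the 13 tested genes (53.8%), beside 16.6% of all tested genes. The list was chosen with earlier results known, and Lbp passed the filter through that library, so nothing is read from this share.

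Among secreted innate defence proteins, 14 of the 46 genes in the table passed the filter. Lyz2, the lysozyme of myeloid cells, stood at 115 and 106 FPKM in A-LMSCs, at 147 and 60.6 in PM-LMSCs, and at 362 and 250 in M-LMSCs. Wfdc17 stood at 2.25 and 3.11 FPKM in A-LMSCs, at 4.32 and 0.945 in PM-LMSCs, and at 30.6 and 14.2 in M-LMSCs. For both genes the M-LMSC libraries were above the rest, and replicate 1, not 2, was the highest. The log2 difference of M-LMSCs from A-LMSCs was 1.44 (SE 0.39) for Lyz2 and 2.59 (SE 0.51) for Wfdc17. The limma adjusted p values were 0.189 and 0.117, and with the replicate block 0.0288 and 0.0223.

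In the same list, Tnfaip6 (TSG-6, a hyaluronan-binding protein that also binds Ptx3) had levels of 0.898 and 0.869 FPKM in A-LMSCs, with 1.98 and 1.40 in PM-LMSCs, and 1.91 and 2.36 in M-LMSCs. Colec11, a collectin that activates the lectin pathway, had 0.243 and 0.331 FPKM in A-LMSCs, with 0.783 and 1.41 in PM-LMSCs, and 1.05 and 2.22 in M-LMSCs. For both genes, each later-stage library was above both A-LMSC libraries. In limma's fit with the replicate block, the adjusted p for M-LMSCs against A-LMSCs was 0.0429 for Tnfaip6 and 0.0232 for Colec11. Without it they were 0.117 and 0.150. Both genes averaged under 1 FPKM in A-LMSCs and passed the filter through their later-stage levels. Their adjusted p values are thus a description and no independent evidence.

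Mfge8, a bridge between dying cells and phagocytes, was lower in PM-LMSCs (34.9 and 38.5 FPKM) than in A-LMSCs (58.5 and 57.3 FPKM), with M-LMSCs at 51.7 and 54.5 FPKM. Its log2 difference of PM-LMSCs from A-LMSCs was -0.64 (SE 0.11), and limma's adjusted p was 0.248, or 0.0609 with the replicate block. Lgals3, a galectin, ranged from 78.8 to 118 FPKM, and Thbs1, a matrix glycoprotein, from 914 to 1399 FPKM.

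Among the inducing cytokines, receptors and transcription factors, 36 of 43 genes passed the filter. Il6 was at 2.47 and 1.94 FPKM in A-LMSCs, at 3.73 and 2.33 in PM-LMSCs, and at 5.74 and 1.90 in M-LMSCs, and the stages overlapped. Il1b was listed at 0 in 5 libraries and Tnf was at most 0.0595 FPKM. Il6 and the genes Il1b and Tnf were named after their values were seen.

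Lif, a cytokine of the interleukin-6 family, stood at 7.49 and 9.37 FPKM in A-LMSCs, at 10.8 and 12.4 in PM-LMSCs, and at 11.3 and 13.7 in M-LMSCs. Its log2 difference of M-LMSCs from A-LMSCs was 0.52 (SE 0.16), with a limma adjusted p of 0.224, or 0.0421 with the replicate block. Cebpb, a transcription factor of acute-phase genes, stood at 10.1 FPKM in PM-LMSCs replicate 2 and between 99.6 and 165 FPKM in the other 5 libraries. Cebpd ranged from 101 to 136 FPKM, the NF-kB subunit Rela from 36.2 to 44.2 FPKM and the tumor necrosis factor receptor Tnfrsf1a from 52.0 to 58.4 FPKM. Il17rc, a chain of the interleukin-17 receptor, stood at 18.5 and 18.2 FPKM in A-LMSCs, at 12.8 and 16.4 in PM-LMSCs, and at 12.0 and 12.5 in M-LMSCs. Its log2 difference of M-LMSCs from A-LMSCs was -0.55 (SE 0.14), with a limma adjusted p of 0.157, or 0.0576 with the replicate block.

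Among receptors and ligands of the 8 proteins, 18 of the 32 genes in the table passed the filter, and 0 were called with or without the replicate block (2, 5 and 4 at an unadjusted p under 0.05 in limma for PM-LMSCs against A-LMSCs, M-LMSCs against A-LMSCs and M-LMSCs against PM-LMSCs, beside 671, 1504 and 919 of the 10279 tested genes). Lrp1, a scavenger receptor, ranged from 123 to 159 FPKM, and Scarb2 from 20.4 to 31.4 FPKM. The Lcn2 receptor Slc22a17 stood at 0.946 to 1.73 FPKM and Lrp2, also a receptor for Lcn2 and Clu, at 3.89 to 6.07 FPKM. Cd163, the macrophage receptor for haptoglobin-hemoglobin complexes, was at most 0.0173 FPKM. Selp, a selectin that Ptx3 binds, stood at 1.21 and 1.20 FPKM in A-LMSCs, at 2.23 and 2.27 in PM-LMSCs, and at 1.84 and 1.87 in M-LMSCs. Its log2 difference of PM-LMSCs from A-LMSCs was 0.56 (SE 0.11), with a limma adjusted p of 0.315, or 0.0908 with the replicate block. Fcgr3, an Fc receptor that pentraxins can bind, had 0.915 and 1.27 FPKM in A-LMSCs, with 1.87 and 0.871 in PM-LMSCs, and 3.79 and 2.42 in M-LMSCs. Fgf2, a growth factor bound by Ptx3, was at 3.34, 6.50 and 6.37 FPKM in replicate 1 of A-, PM- and M-LMSCs and at 11.2, 18.0 and 14.1 FPKM in replicate 2, so it followed the replicate number more than the stage. Hmox1, which degrades heme, ranged from 148 to 220 FPKM, and the receptor Tgfbr2 from 38.7 to 51.2 FPKM. Slc22a17, Lrp2 and Cd163 were named after their values were seen.

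**Figure D3:**
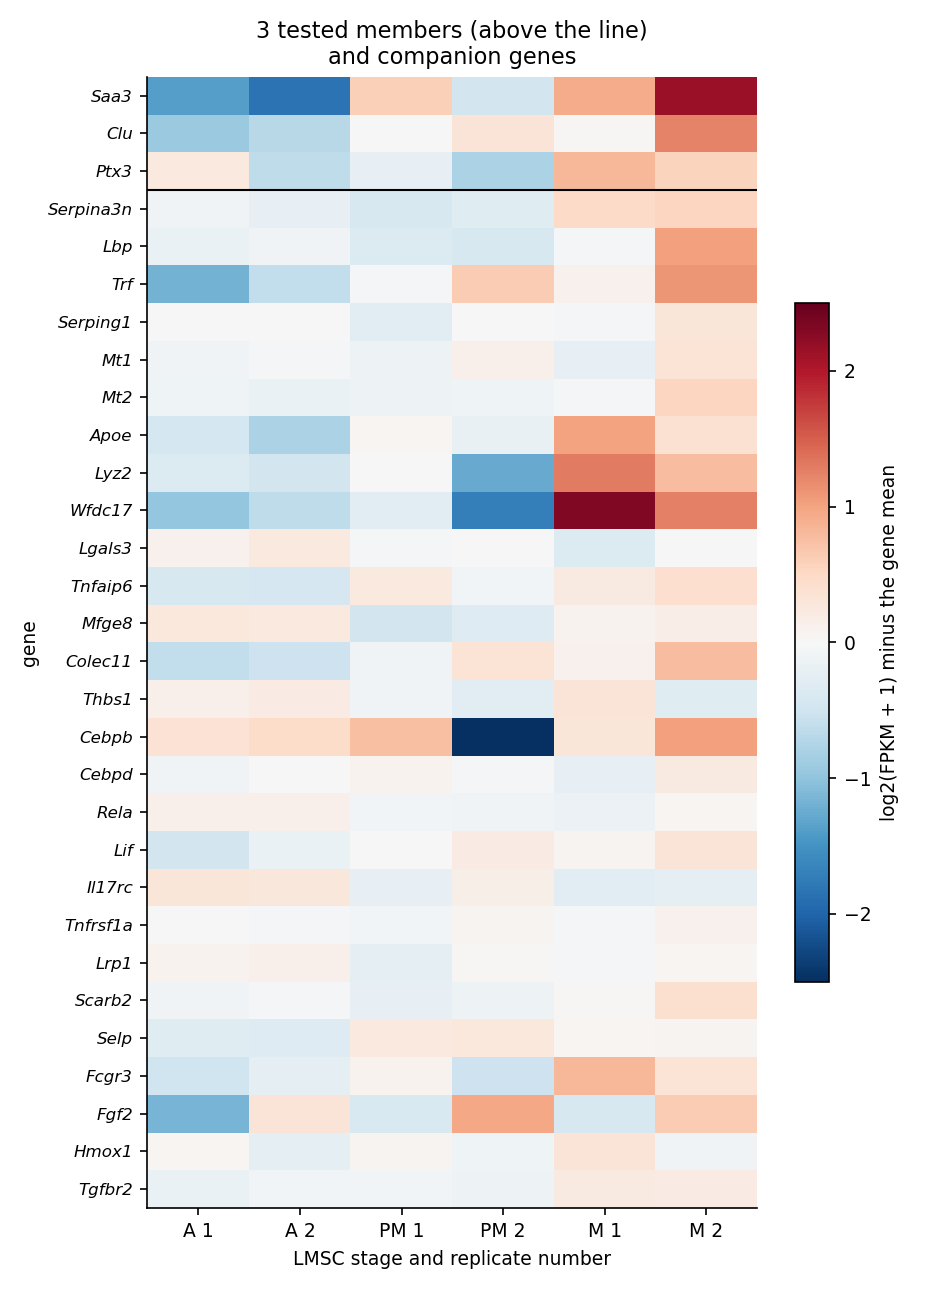
Log2(FPKM + 1) minus the mean of the gene (color, red above and blue below) for Saa3, Clu and Ptx3, above the line, and 27 other genes named by rule (vertical axis), in the 6 libraries (horizontal axis). Color is capped at 2.5 in either direction, and the libraries stand in order of stage. Saa3, Clu, Trf and Colec11 are bluest in A-LMSCs, Lyz2 and Wfdc17 reddest in M-LMSCs replicate 1, and Cebpb is low in PM-LMSCs replicate 2.

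Markers of other cell types were read for the same libraries. The 14 stromal markers, among them collagens and Pdgfra, summed to 2168 to 3403 FPKM, and all 14 had a mean of at least 1 FPKM, as the label of the cells has it. The 12 mesothelial markers summed to 133 and 196 FPKM in A-LMSCs, with 322 and 453 in PM-LMSCs, and 221 and 542 in M-LMSCs. Of these 12 markers, 10 averaged 1 FPKM or more and so were among the tested genes. M-LMSCs replicate 2 was the highest library for 10 of the 12, beside 16.6% of all tested genes, and 0 of them were at 0 in all libraries. The exceptions were Krt19 and Calb2, both highest in A-LMSCs replicate 2. Krt19 stood at 13.8 and 17.3 FPKM in A-LMSCs, at 8.09 and 9.28 in PM-LMSCs, and at 4.92 and 4.49 in M-LMSCs. Its log2 difference of M-LMSCs from A-LMSCs was -1.53 (SE 0.15), with a limma adjusted p of 0.0395. Calb2 was at most 0.360 FPKM. The median r of tested mesothelial markers over the 6 libraries was 0.923 with Clu, 0.693 with Saa3 and -0.05 with Ptx3. The part of mesothelial cells in the levels of Clu, Saa3, Hp and Lcn2 was not tested.

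The 10 macrophage markers summed to 22.3 and 22.6 FPKM in A-LMSCs, with 26.8 and 19.3 in PM-LMSCs, and 50.6 and 50.4 in M-LMSCs. Of these 10 markers, 6 averaged 1 FPKM or more and so were among the tested genes. Both M-LMSC libraries were above both A-LMSC libraries for 10 of the 10, beside 27.1% of all tested genes, and 0 of them were at 0 in all libraries. Their median r was 0.862 with Ptx3, 0.813 with Saa3 and 0.571 with Clu. The cells had been depleted of CD45+ cells, and Ptprc, which encodes CD45, is among these markers. Ptprc was near the floor, at 0.0427 and 0.0254 FPKM in A-LMSCs, 0.0728 and 0.0280 in PM-LMSCs, and 0.0987 and 0.0492 in M-LMSCs. Their part in the levels of Ptx3, Saa3, Lyz2 and Wfdc17 was not tested.

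Neutrophil markers, 10 in number, summed to 0.447 to 0.832 FPKM, and Ly6g, S100a9, Retnlg and Ngp were at 0 in all libraries. Hepatocyte markers, 7 in number, summed to at most 0.0834 FPKM, and Apoc3, Serpina1a, Fgb and Cyp3a11 were at 0 in all libraries. The 10 epithelial markers summed to 0.413 to 1.50 FPKM in A- and PM-LMSCs and to 2.76 and 4.07 FPKM in M-LMSCs. Of the 1.50 FPKM, in A-LMSCs replicate 2, Sftpc made up 1.07. Both M-LMSC libraries were above both A-LMSC libraries for 7 of the 10, beside 27.1% of all tested genes. Of the 10, 0 averaged 1 FPKM or more, so all were outside the tested genes. The part of epithelial markers in the M-LMSC levels was not tested. The 5 endothelial markers summed to 1.56 to 1.72 FPKM in A- and PM-LMSCs and to 2.90 and 2.68 FPKM in M-LMSCs, and their part was not tested either. The level of the 8 genes within any 1 cell type cannot be read from these libraries.

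**Figure D4:**
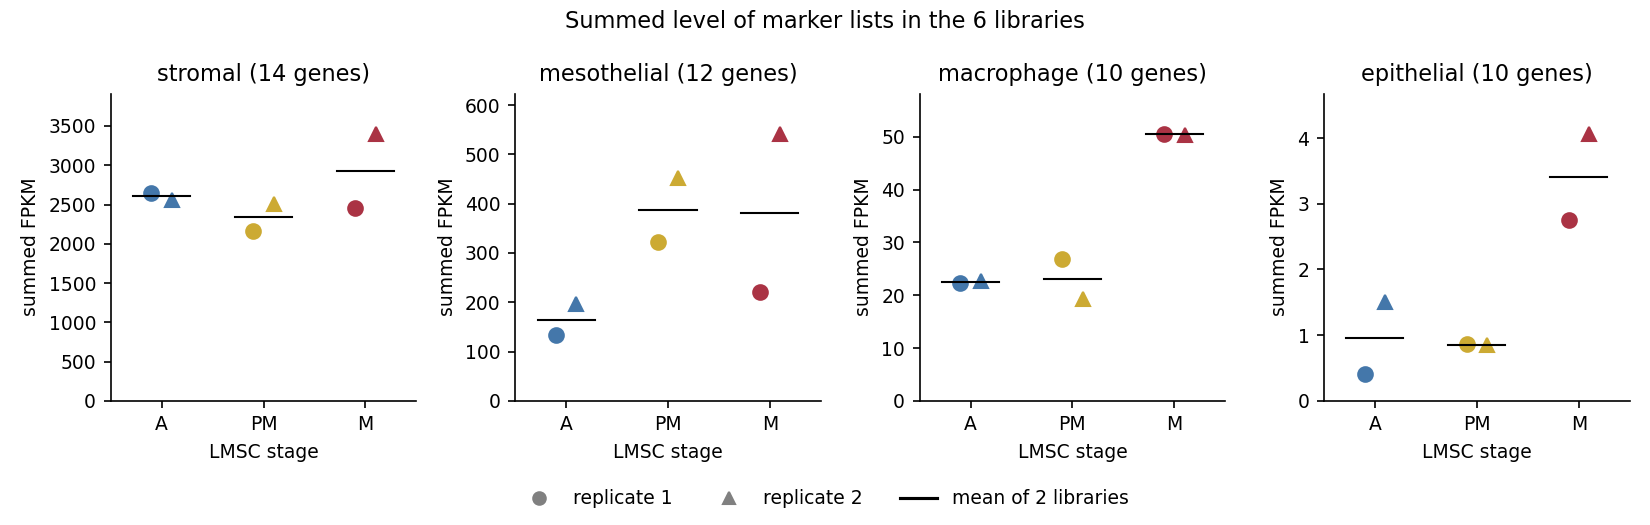
Summed FPKM (vertical axis, starting at 0) of stromal, mesothelial, macrophage and epithelial marker lists in A-, PM- and M-LMSCs (horizontal axis). Circles are replicate 1, triangles replicate 2 and lines the mean of the 2 libraries. The mesothelial sum is highest in M-LMSCs replicate 2 (542 FPKM), and the macrophage sum is 50.6 and 50.4 FPKM in the M-LMSC libraries and at most 26.8 FPKM in the others.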

How the data were processed

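The authors sequenced total RNA of the cultures and deposited 1 table of FPKM values, with 1 column per library. The submitters' processing notes name TopHat2 2.0.9 and mm10. The counting tool, the annotation and the use of strand are not given in the sources used here. The study used 3 mice per stage, and the remaining one of each stage is not analysed here. The 8 genes and the lists were chosen with earlier results of these data known.

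Values were fitted as log2(FPKM + 1) with limma 3.58.1 in R 4.3.3 (1 mean per stage over the 6 libraries, eBayes with trend), for genes averaging 1 FPKM or more, and adjusted by the Benjamini-Hochberg method over 10279 genes at a threshold of 0.05. The fit was also run on simulated data, whose outcome is not given here, so nothing is read from it. No count model was used, since FPKM are not counts: at the estimated depth, low values of single-transcript genes were whole fragments in 96.1% to 96.6% of cases, within 0.1, but in 53.3% to 55.6% of cases over all genes. Replicate numbers were treated as pairing the libraries, because deviations from the stage means of equal-numbered libraries correlated over the tested genes at 0.238 (A-LMSC and PM-LMSC), 0.307 (A-LMSC and M-LMSC) and 0.491 (PM-LMSC and M-LMSC). The labels give no origin for the numbers and do not pair the libraries. The block was thus chosen from the same values that it was used to test. Its adjusted p values describe the libraries under an assumed pairing.

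Other genes were named by a rule: those called in any contrast with or without the block, and in each list the 4 most abundant and the 3 with the largest differences. Some genes that the rule names are not reported here. Copies were searched for with blastn 2.17.0 among GENCODE M21 transcripts. Of the identifiers, 34267 were in that annotation. The first entry was used for 57 names that occur more than 1 time. Figures were drawn with matplotlib 3.10.9 in Python 3.11.15. Alternatives were another pseudocount, no filter, quantile normalization, median centering, only the libraries compared, the replicate block, a minimum fold change, and each library left out.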

Additional observations from a re-analysis of the deposited data

Results flagged for a closer look

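Libraries were measured against the A-LMSC library of the same number. Ptx3, Serpina3n, Lbp and Scarb2 lay on one side of it in both PM-LMSC libraries and on the other in both M-LMSC libraries. Only Saa3, Clu, Ptx3 and the genes named by rule were searched. How many of all tested genes do the same was not counted, so nothing is read from the number found. For Ptx3 the effects were -0.30 in PM-LMSCs and 0.89 in M-LMSCs on the log2 scale, a difference of 1.20. Serpina3n differed by 0.86, Lbp by 0.87 and Scarb2 by 0.37 in the same way, each below A-LMSCs in PM-LMSCs and above it in M-LMSCs. The difference equals the contrast of M-LMSCs with PM-LMSCs. For Ptx3 no test of it is read, since the gene was chosen by these values. For the others, limma's adjusted p was 0.0961 for Serpina3n, 0.488 for Lbp and 0.525 for Scarb2 (0.0397, 0.185 and 0.207 with the replicate block).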

How the results depend on the processing

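With 2 libraries per stage, the number of calls depends mostly on how the spread is estimated. For PM-LMSCs against A-LMSCs, 4 genes were called, 1 with no filter on low values, 21 when only the libraries compared were fitted, 30 with the replicate block, and 1 to 28 when 1 library was left out. For M-LMSCs against A-LMSCs, 7 were called, 3 with no filter, 1 with only the libraries compared, 403 with the replicate block, and 1 to 90 when 1 library was left out. For M-LMSCs against PM-LMSCs, 3 were called, 43 with the replicate block, and 2 to 25 when 1 library was left out. Of the genes on the lists, 0 were called, and with the replicate block 1, 9 and 2 in the same order of contrasts. When 1 library was left out the ranges were 0 to 0, 0 to 3 and 0 to 1, with the calls coming without an M-LMSC library. Over all tested genes, leaving out a library of M-LMSCs gave higher counts than leaving out one of another stage in every contrast. A stage with 1 library left adds nothing to the estimated spread. Calls from such fits are therefore not read as differences between stages. A pseudocount of 0.1, quantile normalization, median centering and a log2 fold change of at least 1 kept all counts within 1.5 times.

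Of Saa3, Clu and Ptx3, each of the 3 contrasts of Saa3 kept its direction in all 12 alternatives. The M-LMSC difference of Clu from A-LMSCs was 0.84 to 2.04, and that from PM-LMSCs -0.13 to 1.08, when 1 library was left out, both lowest without M-LMSCs replicate 2. Ptx3 in PM-LMSCs against A-LMSCs was -0.75 to 0.14, and positive only without A-LMSCs replicate 1. Differences that turned sign were those of Mt1 (-0.12 to 0.42 with 1 library left out, lowest without M-LMSCs replicate 2), Cebpb (-0.088 to 3.54, lowest without PM-LMSCs replicate 2), Fgf2 (-0.026 to 1.46, lowest without A-LMSCs replicate 1) and Tnfrsf1a (-0.033 to 0.124, lowest without M-LMSCs replicate 2, and -0.0031 with median centering), and none of these was called in any alternative. Without M-LMSCs replicate 1, limma called Lbp against PM-LMSCs (adjusted p = 0.0250) and Lbp, Slpi and Colec11 (0.0486 for Colec11) against A-LMSCs. Without M-LMSCs replicate 2 it called Apoe against A-LMSCs (adjusted p = 0.0405). The causes were not tested. Levels under 1 FPKM rest on few fragments, which limits Lcn2, Saa1 and Orm1 most.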

Other observations

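Some low genes of the lists, named after their values were seen, also stood highest in M-LMSCs replicate 2. Il1rn, the interleukin-1 receptor antagonist, was at 1.43 FPKM there and between 0.209 and 0.319 FPKM in the other 5 libraries. Chil1, a chitinase-like protein, was at 1.50 FPKM beside 0.273 to 0.571 FPKM, and Steap4, a metalloreductase, at 0.611 FPKM beside 0.0724 to 0.214 FPKM. Slpi, a secreted inhibitor of leukocyte proteases, was at 14.4 FPKM there and at 8.19 FPKM or less elsewhere. Other genes went with M-LMSCs replicate 1 instead: Serpina3f was at 1.09 FPKM there and at 0.0748 FPKM or less elsewhere, and Fcna, a ficolin, at 1.12 FPKM beside 0.202 to 0.476 FPKM.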
